A study of Mus musculus with 28 samples.

Results

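The circadian clock and clock output genes measured here were Nr1d1, Nr1d2, Dbp, Tef, Usp2, Cry1, Arntl, Nfil3, Noct and Per1 in mouse liver. Every probe set that the array annotation gives to these genes alone was taken, whatever its signal, which made 16 probe sets of 10 genes among 12422 probe sets. The Aag null livers gave 4 untreated arrays and 3, 2, 4 and 3 arrays taken 6 h, 12 h, 24 h and 48 h after methyl methanesulfonate. The wild-type (WT) livers gave 3 untreated arrays and 2, 3, 2 and 2 arrays of the same times. Aag is the glycosylase that removes alkylated bases from DNA, and methyl methanesulfonate (MMS) is a DNA methylating agent. Total RNA was hybridized to 28 Affymetrix MG-U74Av2 arrays. Strain, sex, age, dose, route, lighting, feeding and the hour of dosing or of tissue collection are not stated in the labels, and no vehicle group was analysed here.

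The clock of a mouse liver cell is a loop of transcription factors. The protein of Arntl (BMAL1) pairs with CLOCK, binds E-boxes and drives the Per and Cry genes, Nr1d1, Nr1d2, Dbp and Tef, whereas the Per and Cry proteins repress that pair. The REV-ERB repressors made from Nr1d1 and Nr1d2 act on Arntl, Cry1 and Nfil3 through ROR elements, and Dbp and Tef activate genes with D-boxes, where Nfil3 represses them. In the liver of mice that feed at night the textbook order of peaks runs from Arntl around dawn to Nr1d1 near midday, Nr1d2, Dbp and Tef in the afternoon, Per1 and Usp2 around dusk, Noct early in the night, and Nfil3 and Cry1 late in the night. Usp2 encodes a deubiquitinating enzyme and Noct encodes nocturnin, a phosphatase, both of them rhythmic outputs of the clock.

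The promoters of these genes were searched for the elements that the loop uses. RefSeq (GRCm38.p6) gave 13 promoter windows of 300 bases for the 10 genes, from 250 bases before each start to 50 after it, among 32851 such windows of all genes. The E-box CACGTG, which reads the same on both strands, was present in 4 of the 13 windows, those of Tef, Per1 and Cry1, and in 7.15% of all windows. The windows of Nr1d1, Nr1d2 and Dbp, also targets of the BMAL1 pair, did not hold it. The ROR element cores TAGGTCA and TGGGTCA, searched on both strands, were in 2 and 0 of the 13 windows, against 2.61% and 3.98% of all windows. The D-box form TTANNTAA was in 1 window (Tef) against 6% of all, and the cyclic AMP element TGACGTCA was in 0 against 1.79%. None of these letter patterns contains another. A match describes letters only, and its absence concerns only these windows. The stretches below are shown because Tef and Cry1, and the pair Arntl and Nfil3, carry the differences of WT untreated liver described further on, and because Per1 did not differ there. Capitals mark the E-box in the first 3 and the ROR core in the last 2, all read in the direction of the gene.
Tef, E-box starting 127 bases before the start, chr15:81802519-81802578 (+): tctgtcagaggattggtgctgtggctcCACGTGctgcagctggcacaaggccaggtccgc
Per1, E-box starting 166 bases before the start, chr11:69098756-69098815 (+): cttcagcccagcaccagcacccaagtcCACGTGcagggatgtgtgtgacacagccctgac
Cry1, E-box starting 60 bases before the start, chr10:85185082-85185141 (-): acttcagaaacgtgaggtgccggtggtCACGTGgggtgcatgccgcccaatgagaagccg
Arntl, ROR core starting 30 bases past the start, chr7:113207530-113207558 (+): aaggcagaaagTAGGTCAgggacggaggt
Nfil3, ROR core on the other strand starting 12 bases before the start, chr13:52981040-52981078 (-): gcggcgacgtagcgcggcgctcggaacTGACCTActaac

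In the same build the genes lie at chr7:113178471-113314126 (Arntl), chr10:85131700-85185054 (Cry1), chr7:45705100-45710203 (Dbp), chr13:52967209-52982878 (Nfil3), chr3:51224447-51251654 (Noct), chr11:98767932-98775377 (Nr1d1), chr14:18204056-18239106 (Nr1d2), chr11:69095108-69109965 (Per1), chr15:81802673-81826863 (Tef) and chr9:44067021-44095627 (Usp2). The exons that the probes cover were not analysed here. Values are quantile-normalized log2 signals, on which every array has a median of 4.10, and levels of different probe sets are not compared. A difference is called where limma's Benjamini-Hochberg adjusted p was under 0.05 over all 12422 probe sets, and its standard error (SE) comes from that fit of all 28 arrays. Calls refer to that fit unless an alternative is named. No label states whether replicates came from different animals. The p-values therefore measure the spread between these samples, which may be technical, and the number of arrays limits the precision. In whole liver, fewer cells of a type and less RNA per cell cannot be told apart.

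Libraries stood apart in 3 ways that touch these genes. By 9 hybridization controls, spiked into every sample, 5 arrays formed a high set (10.25 to 11.65 on average) and 23 a lower set (6.42 to 9.22). The high set held Aag untreated replicates 3 and 4 and all 3 WT untreated arrays, and the lower set held Aag untreated replicates 1 and 2 and every treated array, so MMS and the array set cannot be told apart in WT liver. The Gapdh 3′ minus 5′ difference, a sign of RNA integrity, was 0.63 to 0.92 in the high set and -0.37 to 0.21 in the lower set. Female-typical transcripts marked 3 arrays, replicate 3 of untreated Aag null liver and 2 of its 24 h arrays, replicates 1 and 2. WT 6 h replicate 1 correlated at 0.992 with Aag 6 h replicate 1 and at 0.929 with WT 6 h replicate 2, over all probe sets. The mean of 5 hepatocyte markers lay between 10.65 and 11.09 on all arrays, so the tissue label was met. Means of some markers of other cells also differed between the untreated genotypes. The mean of the 4 stellate cell genes (7 probe sets) was 3.49 to 3.74 in WT treated liver and 3.68 to 3.81 in Aag untreated liver, against 3.87 to 3.98 in WT untreated liver. In Aag null liver at 48 h it reached 3.93. The 2 Col1a1 probe sets of that list went the other way, with their lowest group means in WT untreated liver (5.63 and 3.30). The mean of the 5 Kupffer cell genes (7 probe sets) was 4.39 to 4.59 in Aag untreated liver, against 3.89 to 4.27 in WT untreated liver. The mean of the 3 bile duct genes measured of 4 was 2.67 to 2.72 in Aag untreated liver, against 2.80 to 3.12 in WT untreated liver. In WT treated liver the Kupffer mean (3.91 to 4.37) and the bile duct mean (2.42 to 2.98) overlapped WT untreated liver. For these 3 lists the ranges of untreated Aag null and untreated WT liver did not overlap, and the part of such cells in the differences of the clock genes was not tested. Endothelial and lymphocyte markers overlapped between the untreated genotypes.

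**Figure D1:**
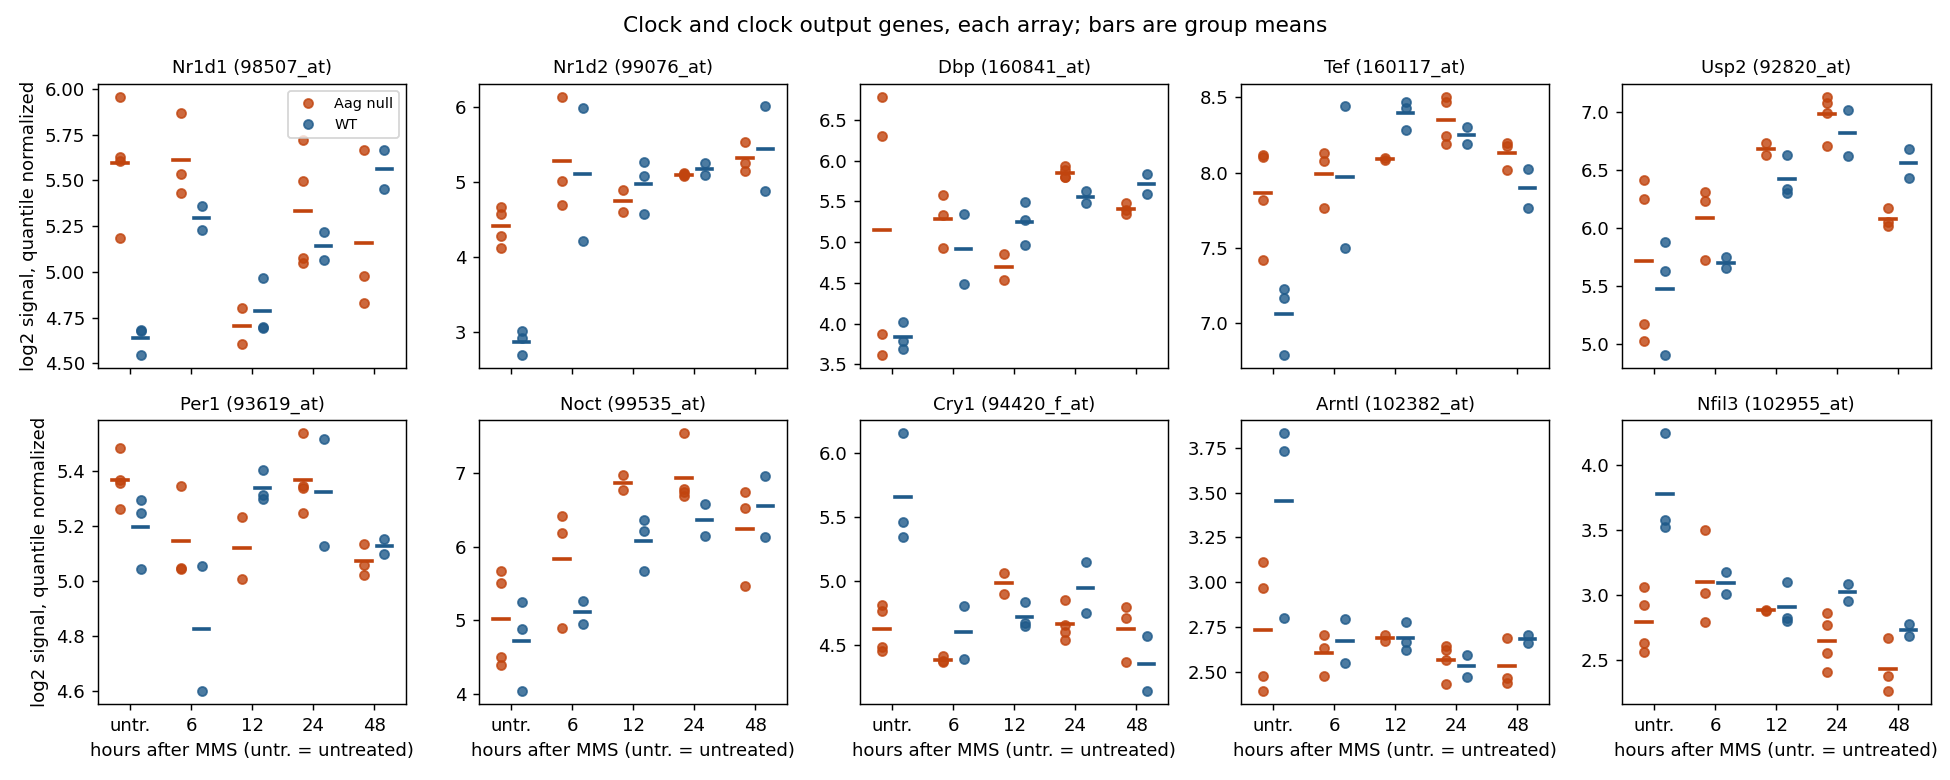
Quantile-normalized log2 signal of 1 probe set for each of the 10 genes (vertical axis, log2) against hours after MMS, with untreated arrays at the left. Each point is an array, bars are group means, Aag null points lie left of WT points. Nr1d2 and Tef of WT untreated liver lie below all other 25 arrays, Cry1 and Nfil3 above them.

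The 3 WT untreated arrays stood apart from the other 25 for 4 of the 16 probe sets. Nr1d2 and Tef lay below every other array there, and Cry1 (94420_f_at) and Nfil3 (102955_at) above every other array. For the remaining member probe sets, among them the other probe sets of Cry1 and Nfil3, the ranges overlapped. Among all probe sets, 5.63% had the 3 WT untreated arrays outside the range of the other 25 arrays, with 3.37% above and 2.25% below. Each gene is described next, in the order of its role.

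Nr1d2, the second REV-ERB repressor, was the member with the widest separation. In Aag null liver its log2 signal was 4.29, 4.12, 4.58 and 4.68 untreated, 6.14, 5.02 and 4.70 at 6 h, 4.90 and 4.60 at 12 h, 5.12, 5.10, 5.08 and 5.10 at 24 h, and 5.15, 5.54 and 5.26 at 48 h. WT liver had 3.01, 2.92 and 2.70 untreated, 6.00 and 4.21 at 6 h, 4.57, 5.26 and 5.09 at 12 h, 5.09 and 5.26 at 24 h, and 4.88 and 6.02 at 48 h. The WT untreated arrays were low and overlapped no other group, while replicates at 6 h spread widely in both genotypes, with the 2 high values in WT replicate 1 and Aag replicate 1. Against WT untreated liver, Nr1d2 was higher by 2.23 at 6 h (SE 0.39, adjusted p = 0.000647, 4.68-fold), by 2.10 at 12 h (SE 0.35, adjusted p = 0.000212), by 2.30 at 24 h (SE 0.39, adjusted p = 0.000414) and by 2.57 at 48 h (SE 0.39, adjusted p = 0.000128, 5.95-fold) in limma. The 4 times share the same 3 untreated arrays. Over all alternatives the adjusted p of Nr1d2 stayed under 0.05 at 12 h (at most 0.0144), 24 h (at most 0.0135) and 48 h (at most 0.0087), and at 6 h it reached 0.17 with array weights. Untreated Aag null liver was higher than untreated WT liver by 1.54 (SE 0.33, adjusted p = 0.00493, range over the alternatives 0.00793 to 0.0368), and against its own untreated arrays Aag null liver differed by 0.34 to 0.90 with no call at any time (the lowest adjusted p of an alternative was 0.0246, at 48 h).

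Nr1d1, the first REV-ERB repressor and an early target of the BMAL1 pair, followed another course. In Aag null liver it was 5.61, 5.96, 5.19 and 5.63 untreated, 5.54, 5.87 and 5.43 at 6 h, 4.80 and 4.61 at 12 h, 5.08, 5.72, 5.50 and 5.05 at 24 h, and 5.67, 4.83 and 4.98 at 48 h. The WT arrays gave 4.68, 4.68 and 4.55 untreated, 5.36 and 5.23 at 6 h, 4.69, 4.97 and 4.70 at 12 h, 5.22 and 5.07 at 24 h, and 5.46 and 5.66 at 48 h. Both genotypes were low at 12 h, where the 5 arrays (4.61 to 4.97) overlapped the range of WT untreated liver and lay below all 5 arrays at 6 h (5.23 to 5.87) and all 6 at 24 h (5.05 to 5.72). Untreated Aag null liver was higher than untreated WT liver by 0.96 (SE 0.19, adjusted p = 0.00317), with no overlap of the groups. That call ended with array weights (adjusted p = 0.231) and within the high array set (adjusted p = 0.192). Against WT untreated liver the call was made at 48 h alone (0.92, SE 0.23, adjusted p = 0.00738), and it ended without WT 48 h replicate 2 (adjusted p = 0.0814, range over the alternatives 0.00213 to 0.383). At 6 h the difference in WT was 0.66 (SE 0.23, adjusted p = 0.0515), and in Aag null liver at 12 h it was -0.89 (SE 0.22, adjusted p = 0.111), neither of them called.

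Dbp, the activator at D-boxes and one of the steepest rhythms known in liver, split the Aag untreated arrays. Its signal was 3.88, 3.62, 6.30 and 6.79 in Aag untreated liver, where 2 replicates matched WT untreated liver and the other 2 were the highest of all 28 arrays. After MMS, Aag null liver had 5.58, 4.93 and 5.33 at 6 h, 4.86 and 4.54 at 12 h, 5.93, 5.80, 5.88 and 5.79 at 24 h, and 5.48, 5.34 and 5.40 at 48 h. WT liver had 4.02, 3.79 and 3.69 untreated, 5.34 and 4.48 at 6 h, 5.26, 5.50 and 4.96 at 12 h, 5.62 and 5.48 at 24 h, and 5.59 and 5.83 at 48 h. All 21 treated arrays (4.48 to 5.93) lay above all 3 WT untreated arrays and between the low and the high pair of Aag untreated arrays. Against WT untreated liver Dbp was higher by 1.71 at 24 h (SE 0.57, adjusted p = 0.0451) and 1.88 at 48 h (SE 0.57, adjusted p = 0.0261), and by 1.08 at 6 h and 1.41 at 12 h with no call (adjusted p = 0.204 and 0.0519). Leaving out any 1 of the 5 arrays of the 24 h comparison ended its call (adjusted p = 0.0652 to 0.203), and at 48 h that was so for 4 of 5 arrays (adjusted p = 0.0516 to 0.14).

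The SE of Dbp is set in part by the Aag untreated group, whose SD was 1.63 (mean 5.14, n = 4), against 0.17 in WT untreated liver (mean 3.83, n = 3). The low pair lay in the lower array set and the high pair in the high set, a difference of 2.79 between the sets. For 11 of the 16 member probe sets the high-set pair lay outside the range of the other pair, beside 56.7% of all probe sets. Within the lower set, Aag null liver was higher than untreated replicates 1 and 2 by 1.53 at 6 h (adjusted p = 0.00636), 2.10 at 24 h (adjusted p = 2.18e-05) and 1.66 at 48 h (adjusted p = 0.0012), and by 0.95 at 12 h with no call (adjusted p = 0.114). Within the high set, untreated Aag null liver was higher than untreated WT liver by 2.71 (SE 0.21, adjusted p = 0.00084, range over the alternatives 2.23e-07 to 0.336), where over all untreated arrays the difference was 1.31 (SE 0.48, adjusted p = 0.0881). When the array set entered the fit, Dbp in WT was higher by 3.87 to 4.67 over the 4 times. Only the untreated Aag null group, with 4 arrays, holds both sets and so fixes that term, and the part of the array set in Dbp was not tested apart from differences between those livers.

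Tef, the partner of Dbp at D-boxes, was likewise low in WT untreated liver, over a smaller range. Tef and Dbp correlated at 0.61 over all 28 arrays and at -0.02 over the 21 treated arrays. In Aag null liver it was 7.82, 7.42, 8.12 and 8.11 untreated, 7.77, 8.13 and 8.08 at 6 h, 8.08 and 8.10 at 12 h, 8.47, 8.51, 8.19 and 8.25 at 24 h, and 8.18, 8.02 and 8.20 at 48 h. For WT liver the values were 6.79, 7.17 and 7.22 untreated, 7.50 and 8.44 at 6 h, 8.43, 8.47 and 8.28 at 12 h, 8.19 and 8.31 at 24 h, and 8.02 and 7.77 at 48 h. WT untreated liver was again below every other array, and the high values lay at 12 h in WT and at 24 h in Aag null liver. Against WT untreated liver Tef was higher by 0.91 at 6 h (SE 0.22, adjusted p = 0.00693), 1.33 at 12 h (SE 0.20, adjusted p = 5.75e-05), 1.19 at 24 h (SE 0.22, adjusted p = 0.000882) and 0.84 at 48 h (SE 0.22, adjusted p = 0.0106). The calls at 12 h and 24 h held under every alternative (adjusted p at most 0.000701 and 0.0232). The call at 6 h ended without WT 6 h replicate 2 (adjusted p = 0.165) and with array weights (adjusted p = 0.421), and the call at 48 h without WT 48 h replicate 1 (adjusted p = 0.113, range over the alternatives 0.002 to 0.113). Untreated Aag null liver was higher than untreated WT liver by 0.81 (SE 0.18, adjusted p = 0.00778), a call lost with array weights (adjusted p = 0.0872) and within the high array set (adjusted p = 0.0574).

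Usp2, the deubiquitinase, was measured by 2 probe sets that correlated at 0.81 across the 28 arrays. By 92820_at, Aag null liver had 5.02, 5.17, 6.25 and 6.41 untreated, 6.31, 5.72 and 6.23 at 6 h, 6.73 and 6.63 at 12 h, 6.99, 6.71, 7.08 and 7.13 at 24 h, and 6.05, 6.01 and 6.17 at 48 h. WT liver had 4.91, 5.88 and 5.63 untreated, 5.75 and 5.66 at 6 h, 6.34, 6.62 and 6.30 at 12 h, 7.01 and 6.62 at 24 h, and 6.68 and 6.43 at 48 h. Every array at 24 h in Aag null liver lay above all 4 untreated ones, and in WT the arrays at 12 h, 24 h and 48 h lay above all 3 untreated ones. Usp2 was higher than in untreated Aag null liver by 1.26 at 24 h (SE 0.24, adjusted p = 0.0224) for 92820_at and 0.85 (SE 0.18, adjusted p = 0.0384) for 92821_at. In WT it was higher at 12 h, 24 h and 48 h by 0.95, 1.34 and 1.08 for 92820_at (adjusted p = 0.0191, 0.00589 and 0.0205) and by 0.86, 0.94 and 0.93 for 92821_at (adjusted p = 0.004, 0.00708 and 0.00652). Each of these 6 WT calls of Usp2 ended under at least 1 alternative (highest adjusted p from 0.0532 to 0.156), among them the fits without WT untreated replicate 1, WT 12 h replicate 2 or any 1 of the WT arrays at 24 h and 48 h. Within the lower array set the differences of 92820_at in Aag null liver were 0.99, 1.58, 1.88 and 0.98 at 6 h, 12 h, 24 h and 48 h, all called.

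Noct, which encodes nocturnin, showed the largest differences of Aag null liver. By 99535_at it was 4.39, 4.50, 5.50 and 5.68 in untreated Aag null liver, 6.19, 4.90 and 6.43 at 6 h, 6.97 and 6.77 at 12 h, 7.55, 6.69, 6.75 and 6.79 at 24 h, and 5.47, 6.74 and 6.52 at 48 h. WT liver gave 4.03, 4.87 and 5.24 untreated, 5.27 and 4.95 at 6 h, 5.66, 6.36 and 6.22 at 12 h, 6.58 and 6.14 at 24 h, and 6.13 and 6.97 at 48 h. Arrays at 12 h and 24 h lay above all untreated arrays of their genotype, and 6 h overlapped them in both. Noct was higher by 1.93 at 24 h in Aag null liver (SE 0.36, adjusted p = 0.0156, 3.80-fold), and by 1.85 at 12 h with no call (SE 0.44, adjusted p = 0.0975). In WT it was higher by 1.36 at 12 h (SE 0.41, adjusted p = 0.0208), 1.65 at 24 h (SE 0.46, adjusted p = 0.0176) and 1.83 at 48 h (SE 0.46, adjusted p = 0.00806). All 3 of these WT calls of Noct ended with array weights (adjusted p = 0.0722, 0.0686 and 0.131). Those at 12 h and 24 h also ended without WT untreated replicate 1 (adjusted p = 0.117 and 0.0786), the one at 12 h without WT 12 h replicate 2 or 3 (adjusted p = 0.0808 and 0.0671), the one at 24 h without either WT 24 h array (adjusted p = 0.163 and 0.0729), and the one at 48 h without WT 48 h replicate 2 (adjusted p = 0.126). The probe sets 101787_f_at (2.84 to 4.39) and 162384_f_at (1.59 to 2.67) had no call in the fit of all arrays, though the lowest adjusted p of an alternative was 0.0197 for 101787_f_at (WT at 6 h) and 0.0345 for 162384_f_at (WT at 48 h). The suffix marks probes that may match related transcripts, and 5 more probe sets list Noct together with other genes and were not assigned.

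Per1, a repressor of the loop and also a gene that glucocorticoids induce, hardly varied. Its 28 values ran from 4.60 to 5.54, with group means from 4.82 ± 0.32 (SD, n = 2) in WT liver at 6 h to 5.37 ± 0.12 (SD, n = 4) in Aag null liver at 24 h. No comparison called it in the fit of all arrays, where the lowest adjusted p was 0.0821, for WT liver at 6 h against WT untreated liver (difference -0.37, SE 0.14). Alternatives reached 0.0121 for that difference and 0.0296 for 6 h against 24 h and 48 h.

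Cry1, the repressor with a late-night peak, was high in WT untreated liver. By 94420_f_at it was 4.48, 4.45, 4.76 and 4.81 in untreated Aag null liver, 4.41, 4.36 and 4.37 at 6 h, 4.90 and 5.06 at 12 h, 4.85, 4.53, 4.66 and 4.60 at 24 h, and 4.37, 4.79 and 4.71 at 48 h. In WT liver it was 5.46, 5.34 and 6.16 untreated, 4.39 and 4.81 at 6 h, 4.67, 4.65 and 4.84 at 12 h, 5.15 and 4.74 at 24 h, and 4.13 and 4.57 at 48 h. WT untreated liver lay above all other arrays, and among Aag null arrays the 2 at 12 h were the highest. Against WT untreated liver Cry1 fell by 1.05 at 6 h (SE 0.20, adjusted p = 0.00128), 0.93 at 12 h (adjusted p = 0.000857), 0.71 at 24 h (adjusted p = 0.0205) and 1.30 at 48 h (adjusted p = 0.000173, 2.46-fold lower). Untreated Aag null liver was lower than untreated WT liver by -1.03 (SE 0.17, adjusted p = 0.000594), and the calls at each time and between untreated livers were made on 161225_r_at too, although that probe set was below the array median on all 28 arrays. The third probe set, 94421_r_at, equally dim, was called lower in WT at 6 h, 12 h and 48 h by -0.81, -0.74 and -0.82 (adjusted p = 0.0407, 0.031 and 0.0369), and each of those calls ended without WT untreated replicate 1 or 2 (adjusted p = 0.0559 to 0.242). When the array set entered the fit, 0 of the 4 WT calls of Cry1 remained (adjusted p = 0.0692 to 0.543 for 94420_f_at). For 94420_f_at the call at 6 h also ended with array weights (adjusted p = 0.371), the one at 24 h without WT untreated replicate 3 or WT 24 h replicate 2 (adjusted p = 0.0891 and 0.286), and the one between untreated livers within the high array set (adjusted p = 0.232).

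Arntl, the activator that pairs with CLOCK, was dim on all 28 arrays, below the median of each. In Aag null liver it was 3.11, 2.97, 2.39 and 2.47 untreated, 2.48, 2.71 and 2.63 at 6 h, 2.67 and 2.71 at 12 h, 2.62, 2.64, 2.43 and 2.56 at 24 h, and 2.69, 2.44 and 2.46 at 48 h. Its WT values were 3.73, 2.80 and 3.83 untreated, 2.55 and 2.79 at 6 h, 2.78, 2.67 and 2.62 at 12 h, 2.59 and 2.47 at 24 h, and 2.70 and 2.66 at 48 h. WT untreated liver lay above all 21 treated arrays (2.43 to 2.79) but overlapped Aag untreated replicates 1 and 2. Arntl was lower after MMS in WT liver, by -0.78, -0.77, -0.93 and -0.78 in the order of the times (adjusted p = 0.0168, 0.00714, 0.00623 and 0.017). The call at 12 h held under every alternative (adjusted p at most 0.0429), whereas at 6 h and 48 h it ended without WT untreated replicate 1 or 3 (adjusted p = 0.0653 to 0.069). It also ended at 6 h without WT 6 h replicate 1 (adjusted p = 0.101) and with array weights (adjusted p = 0.458), at 24 h without WT 24 h replicate 2 (adjusted p = 0.0834), and at 48 h without either WT 48 h array (adjusted p = 0.0759 and 0.0954). Untreated Aag null liver was lower than untreated WT liver by -0.72 (SE 0.18, adjusted p = 0.0156). Leaving out either of the same 2 arrays ended this call (adjusted p = 0.0776 and 0.0762, range over the alternatives 0.000155 to 0.258).

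Nfil3, the repressor at D-boxes, was by 102955_at high in WT untreated liver, as Cry1 was. Over the 21 treated arrays this probe set and Cry1 94420_f_at correlated at 0.01. By 102955_at Nfil3 was 2.57, 3.06, 2.63 and 2.92 in untreated Aag null liver, 2.79, 3.50 and 3.02 at 6 h, 2.89 and 2.88 at 12 h, 2.77, 2.86, 2.41 and 2.56 at 24 h, and 2.67, 2.26 and 2.38 at 48 h. The WT values were 3.57, 3.52 and 4.24 untreated, 3.01 and 3.18 at 6 h, 2.83, 2.80 and 3.10 at 12 h, 3.09 and 2.95 at 24 h, and 2.69 and 2.78 at 48 h. WT untreated liver had the highest group mean, and 48 h had the lowest mean within each genotype. Nfil3 was lower after MMS in WT by -0.69, -0.87, -0.76 and -1.05 at 6 h, 12 h, 24 h and 48 h (adjusted p = 0.0263, 0.00205, 0.0163 and 0.00144). Untreated Aag null liver was lower than untreated WT liver by -0.98 (SE 0.17, adjusted p = 0.00112). With the array set in the fit, 0 of the 4 WT calls of Nfil3 remained (adjusted p = 0.0654 to 0.272). The call at 6 h also ended with array weights (adjusted p = 0.688) and without WT untreated replicate 3 or WT 6 h replicate 1 (adjusted p = 0.111 and 0.117), and the call at 24 h without WT untreated replicate 3 or either WT 24 h array (adjusted p = 0.0684 to 0.154). Between untreated livers the call ended with array weights (adjusted p = 0.088) and within the high array set (adjusted p = 0.205). The probe set 102955_at was dim, above the array median on 1 of the 28 arrays. The brighter probe set 101805_f_at (4.79 to 5.91) had no call in any comparison and correlated with 102955_at at 0.29, so the 2 probe sets of Nfil3 disagreed.

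**Figure D2:**
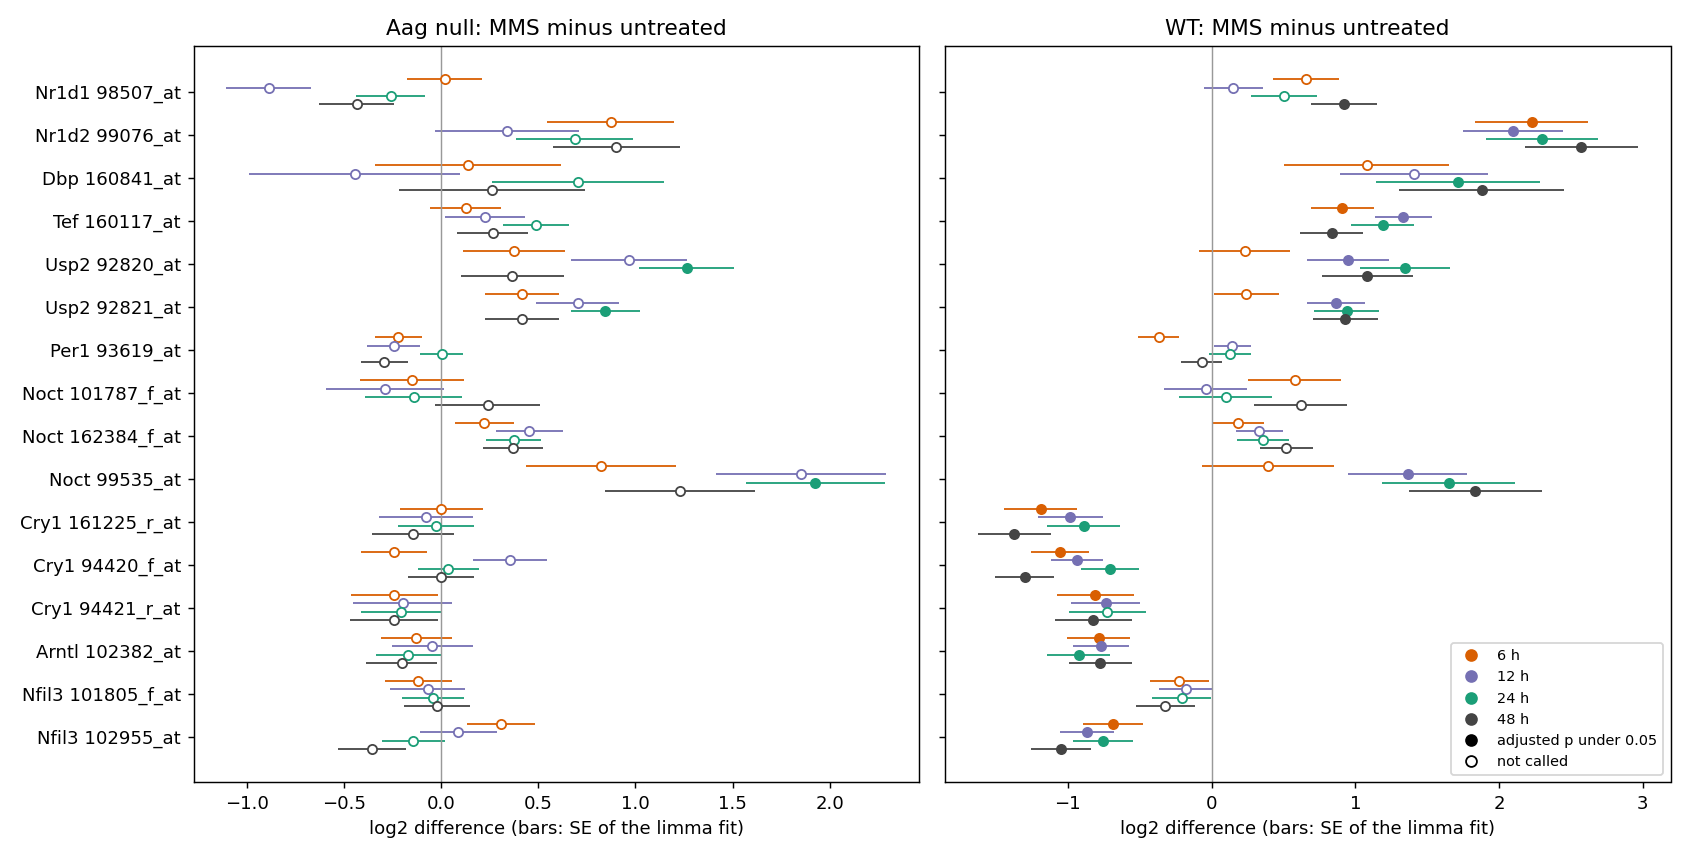
Log2 difference of each of the 16 probe sets between MMS-treated and untreated liver (horizontal axis), Aag null at the left and WT at the right, with colours for the 4 times and bars for the SE of the limma fit. Filled points are called. Calls in Aag null liver are the 2 Usp2 probe sets and Noct 99535_at at 24 h, whereas in WT liver 7, 10, 10 and 12 probe sets are called at 6 h, 12 h, 24 h and 48 h.

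Counted together, more members were called after MMS in WT liver than in Aag null liver. In Aag null liver 0, 0, 3 and 0 of the 16 probe sets were called at 6 h, 12 h, 24 h and 48 h, beside 0.314%, 0.129%, 0.499% and 0.233% of all probe sets, and 3, 5, 6 and 6 had an unadjusted p under 0.05 in limma. The 3, all higher (0.266% of all probe sets, with 0.233% lower), were both Usp2 probe sets and Noct, and 0 to 1 of them remained without any 1 of the 24 h arrays or without untreated replicate 2. In WT liver 7 of 16 were called at 6 h, beside 16.8% of all probe sets, with 2 higher (7.42% of all) and 5 lower (9.42% of all). At 12 h the count was 10 beside 21.7%, with 5 higher (10.6%) and 5 lower (11.2%). At 24 h it was 10 beside 15.1%, with 6 higher (6.44%) and 4 lower (8.67%), and at 48 h 12 beside 17.6%, with 7 higher (7.72%) and 5 lower (9.92%). The median size of the difference over the members was 0.67, 0.87, 0.82 and 0.93 in WT, against 0.24 to 0.25 over all probe sets. The WT counts fell to 4 without 6 h replicate 1, to 4 and 3 without 24 h replicate 1 or 2, and to 7 and 6 without 48 h replicate 1 or 2. Within the lower array set, 2, 3, 5 and 2 probe sets were called in Aag null liver.

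Differences between the genotypes were called in untreated livers and not in treated ones. Between Aag null and WT untreated liver 7 of 16 were called, beside 9.36% of all probe sets. Higher were 3 (Nr1d1, Nr1d2 and Tef, with 3.69% of all) and lower were 4 (Cry1 by 94420_f_at and 161225_r_at, Arntl and Nfil3, with 5.68% of all). Between Aag null and WT treated liver over all times 0 of 16 were called and 0 had an unadjusted p under 0.05 in limma, beside 0.0725% called of all probe sets, with a median size of 0.05 for the members and 0.05 for all. The mean response over the 4 times, Aag null minus WT, was called for 6 of 16, beside 5.21% of all, with 3 positive (3.57%) and 3 negative (1.63%). For Nr1d2 that difference of -1.60 (SE 0.38, adjusted p = 0.0166) was made up of -0.06 between treated livers and 1.54 between untreated livers. Of the 6 calls only that of Nr1d2 held under every alternative (adjusted p at most 0.0476 in limma). Within the high array set, the 2 Aag untreated arrays lay outside the WT untreated range for 11 of 16 probe sets, beside 30.2% of all, and 2 were called, Dbp and Nr1d2 (1.75, adjusted p = 0.0115).

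Among treated livers, where no untreated array enters the difference and all arrays lie in the lower set, the genes moved less and in another arrangement. Against 24 h and 48 h together, liver at 12 h had less Nr1d1, by -0.55 (SE 0.14, adjusted p = 0.116), which was -0.54 in Aag null and -0.56 in WT liver. The difference missed the threshold in limma and reached it with array weights (-0.53, adjusted p = 0.0143, range over the alternatives 0.0143 to 0.887). Dbp differed there by -0.66 (SE 0.35), with -0.93 in Aag null and -0.39 in WT liver. With only treated arrays in the fit, Dbp at 12 h was called lower (SE 0.13, adjusted p = 0.0282, range over the alternatives 0.0139 to 1). Low Dbp was not particular to 12 h. At 6 h against 24 h and 48 h it differed by -0.53 (SE 0.35, adjusted p = 0.81 in limma, lowest of an alternative 0.0352). In WT liver its mean was lower at 6 h (4.91) than at 12 h (5.24), and in Aag null liver it was higher (5.28 and 4.70). No member was called in the fit of all arrays at 12 h against 24 h and 48 h (0.314% of all probe sets; 1 member with unadjusted p under 0.05), nor in WT (0.0483%), in Aag null liver (0%) or in the difference of the genotypes (0%).

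Over both genotypes together, Noct and Usp2 had their lowest means of the 4 times at 6 h, with no call. Noct averaged 5.55 ± 0.71 at 6 h (SD, n = 5), 6.40 ± 0.51 at 12 h (SD, n = 5), 6.75 ± 0.46 at 24 h (SD, n = 6) and 6.37 ± 0.59 at 48 h (SD, n = 5). Usp2 by 92820_at averaged 5.93 ± 0.31, 6.52 ± 0.19, 6.92 ± 0.21 and 6.27 ± 0.28 at the same times, although within Aag null liver its means at 6 h and 48 h were alike (6.09 and 6.08). At 6 h against 24 h and 48 h, Noct differed by -1.05 (SE 0.28, adjusted p = 0.0706), Usp2 92820_at by -0.71 (SE 0.19, adjusted p = 0.0757), Per1 by -0.24 (adjusted p = 0.296) and Nfil3 102955_at by 0.39 (adjusted p = 0.186). None of the 16 was called in the fit of all arrays (1.15% of all; 5 members with unadjusted p under 0.05). Without WT 6 h replicate 1 and Aag 6 h replicate 1, the pair alike across genotypes, 4 were called, Nr1d2 (-0.72, adjusted p = 0.0154), Usp2 92820_at (-0.79, adjusted p = 0.0443), Noct (-1.22, adjusted p = 0.0329) and Nfil3 (0.51, adjusted p = 0.0416). The adjusted p of Usp2 92820_at ranged from 0.0015 to 0.929 over the alternatives and that of Noct from 0.0303 to 1.

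At 6 h against 12 h, Nr1d1 differed by 0.71 (SE 0.16, adjusted p = 0.111), with 5.48 ± 0.24 at 6 h and 4.76 ± 0.14 at 12 h (SD, n = 5 each) and no overlap of the arrays. No member was called there (0.105% of all; 6 members with unadjusted p under 0.05). The 48 h and 24 h livers, a day apart, differed by -0.58 in Usp2 92820_at (SE 0.22, adjusted p = 0.53) and by -0.25 in Per1 (SE 0.10, adjusted p = 0.623). No member was called at 48 h against 24 h either (0.0403% of all; 3 members with unadjusted p under 0.05), although Usp2 92820_at was called with only treated arrays in the fit (adjusted p = 0.0417, range over the alternatives 0.0417 to 1).

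**Figure D3:**
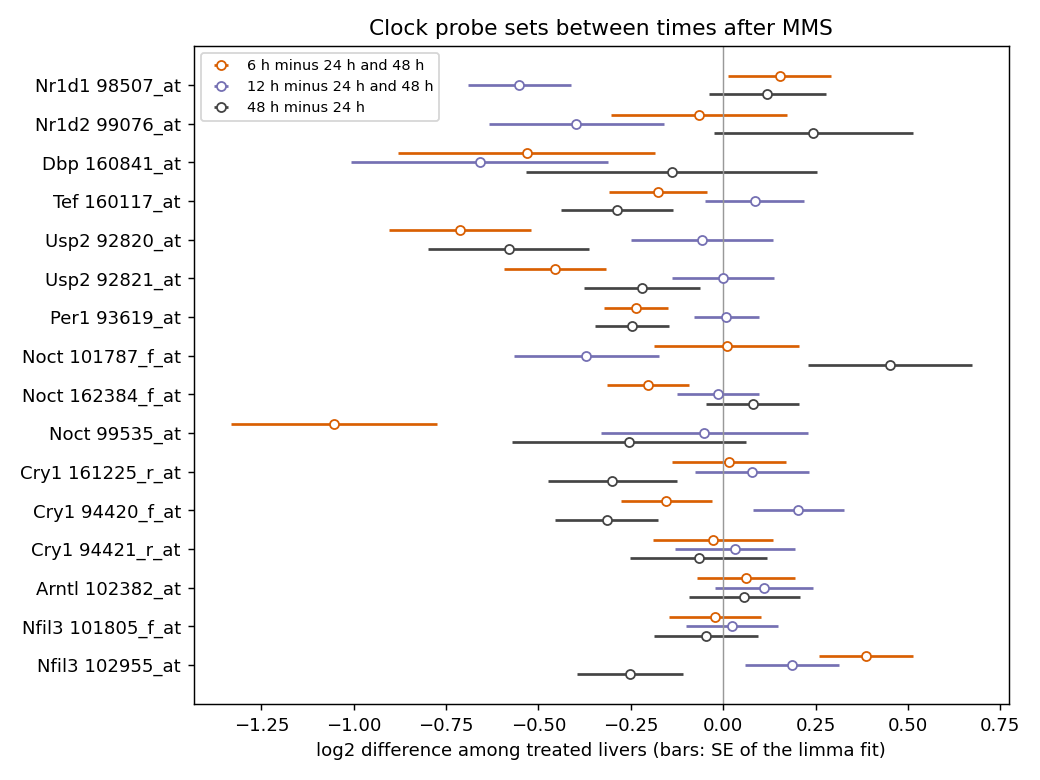
Log2 difference of each of the 16 probe sets between times after MMS (horizontal axis), both genotypes together, with bars for the SE of the limma fit. Open points were not called, which is all of them. Noct 99535_at and Usp2 92820_at are lowest at 6 h against 24 h and 48 h (-1.05 and -0.71), and Nr1d1 and Dbp at 12 h (-0.55 and -0.66).

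To set the members side by side, each array's deviation from the median of the 28 arrays was taken per gene and averaged over the afternoon and dusk genes (Dbp, Tef, Usp2 and Per1), over the late night and dawn genes (Arntl, Cry1 and Nfil3) and over Nr1d1 and Nr1d2. WT untreated liver averaged -0.87 for the afternoon genes, 0.89 for the dawn genes and -1.37 for the REV-ERB genes. Aag untreated replicates 1 and 2 had -0.76 and -0.87 for the afternoon genes, -0.02 and 0.09 for the dawn genes and -0.18 and -0.09 for the REV-ERB genes. Aag untreated replicates 3 and 4 had 0.25 and 0.44, -0.14 and 0.00, and -0.25 and 0.02 for the same 3 groups. Thus the afternoon mean was low in 5 of the 7 untreated arrays, and the dawn mean was high in the 3 of WT alone. Single genes departed from these means. Arntl was also high in Aag untreated replicates 1 and 2 (0.46 and 0.32), above WT untreated replicate 2 (0.15). Per1 was not low in Aag untreated replicates 1 and 2 (0.01 and 0.11), nor in WT untreated replicate 2 (0.05).

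Treated arrays were closer together. Their dawn means ran from -0.24 to 0.21, below all 3 WT untreated arrays (0.49 to 1.34), and their afternoon means from -0.46 to 0.42. In Aag null liver the afternoon mean was -0.13, -0.11, 0.38 and -0.09 in the order of the times. The WT means were -0.41, 0.09, 0.23 and 0.06, so 24 h was the highest in both genotypes. The REV-ERB mean was lowest at 12 h, with -0.40 in Aag null and -0.25 in WT liver, and 0.11 and 0.38 at 48 h.

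**Figure D4:**
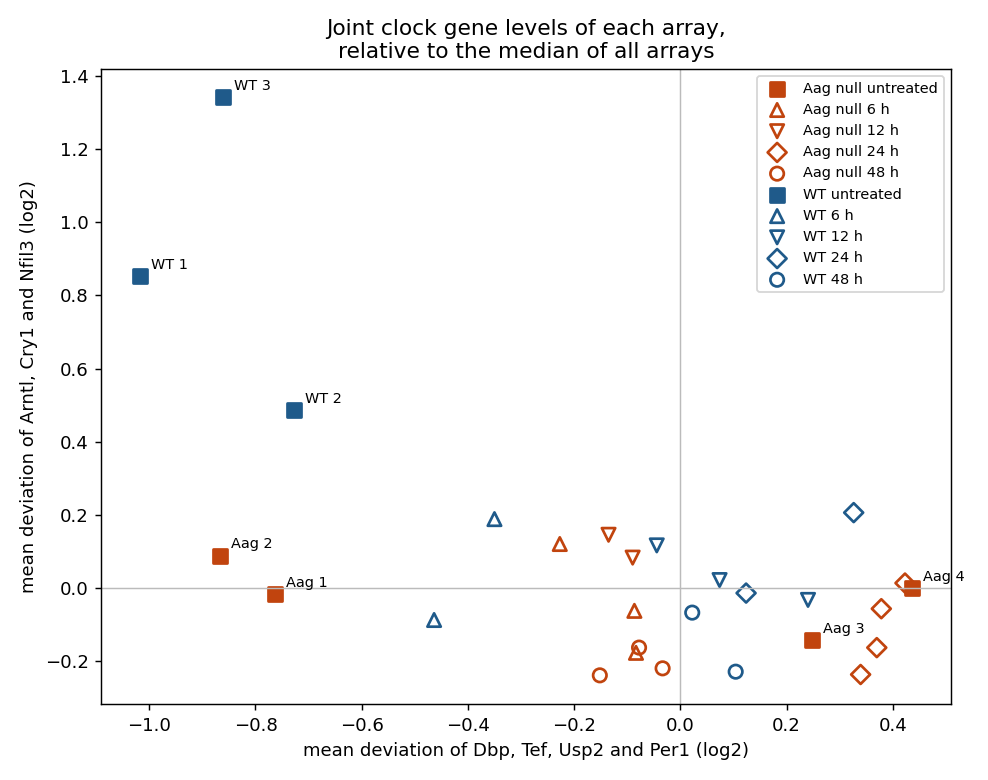
Mean log2 deviation of the afternoon and dusk genes (horizontal axis) and of the late night and dawn genes (vertical axis) for each of the 28 arrays, relative to the median of all arrays. Filled squares are untreated arrays, numbered by replicate. The WT untreated arrays sit at 0.49 to 1.34 on the vertical axis, and all treated arrays between -0.24 and 0.21.

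Beside the textbook order of peaks, the groups differed in which genes were high together. No array has a known hour, so no time of day was assigned. Aag untreated replicates 1 and 2 had high Nr1d1 with low Dbp, Usp2 and Noct, and replicates 3 and 4 had the highest Dbp of all arrays. WT untreated liver had the genes of late night and dawn high (Cry1, Nfil3 and Arntl) and Nr1d1, Nr1d2, Dbp and Tef low. Liver at 12 h had the lowest mean of Nr1d1 of the 4 times in each genotype (4.71 in Aag null and 4.79 in WT liver), and liver at 24 h had the highest mean of Usp2 by 92820_at in each (6.98 and 6.82). For Noct by 99535_at the highest mean lay at 24 h in Aag null liver (6.94) and at 48 h in WT liver (6.55). None of the 21 treated arrays had the combination seen in WT untreated liver, including those at 24 h and 48 h. The hour of collection, MMS and the array set cannot be told apart for that combination in WT liver.

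Correlations describe how the members moved together, with arrays as points that share group and array set. Over the 21 treated arrays, Usp2 and Noct correlated at 0.76, Tef and Per1 at 0.72, Nr1d1 and Cry1 at -0.67, Nr1d2 and Tef at -0.66, Arntl and Nfil3 at 0.55 and Dbp and Usp2 at 0.54. Over all 28 arrays, Usp2 and Noct correlated at 0.88, Nr1d2 and Arntl at -0.77, Dbp and Arntl at -0.73, and Arntl and Nfil3 at 0.72.

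Among 223 other probe sets that varied across treated groups, those most like Dbp over the 21 treated arrays were Gstt2, a glutathione transferase (r = 0.86), Aldh3a2, a fatty aldehyde dehydrogenase (r = 0.85), Dhrs7 (r = 0.84), the peroxisomal thiolase Acaa1b (r = 0.84) and the pantetheinase Vnn1 (r = 0.83). Gstt2 averaged 6.85, 6.89, 7.98 and 7.13 at 6 h, 12 h, 24 h and 48 h in Aag null liver and 6.70, 7.10, 7.77 and 7.80 in WT liver. Most opposed were 2 probe sets of cathepsin E, Ctse (r = -0.70 and -0.67), the glucose-6-phosphatase gene G6pc (r = -0.64), Sec61a1 of the protein channel of the endoplasmic reticulum (r = -0.64) and Slc35b1 (r = -0.63).

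Of 18 further clock genes 11 were on the array, with 16 probe sets, and none was called between times after MMS, in Aag null liver after MMS or between untreated livers. In WT liver 1, 2, 2 and 2 of the 16 were higher at 6 h, 12 h, 24 h and 48 h and 0 were lower. Of all probe sets 7.42%, 10.6%, 6.44% and 7.72% were higher and 9.42%, 11.2%, 8.67% and 9.92% lower, so the counts of higher ones were near that share. The probe sets called were that of Timeless at all 4 times (0.43 to 0.60) and 97263_s_at of the casein kinase Csnk1d at 12 h, 24 h and 48 h (0.90 to 0.98, with no call for its other 3 probe sets).

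Of 13 rhythmic liver output genes 9 were on the array, with 11 probe sets. Of these, 1, 0, 3 and 0 were higher in Aag null liver at the 4 times and 0 were lower, with medians of 0.21, 0.31, 0.68 and 0.31. Of all probe sets 0.314%, 0.129%, 0.499% and 0.233% were called there in either direction. In WT liver 0, 4, 5 and 5 were higher and 1 was lower at each time, with medians of 0.01, 0.62, 0.91 and 0.81, against at most 0.03 over all probe sets in either genotype. The shares of all probe sets in WT were 7.42%, 10.6%, 6.44% and 7.72% higher and 9.42%, 11.2%, 8.67% and 9.92% lower. Cyp7a1, whose enzyme begins the making of bile acids from cholesterol, was higher in Aag null liver by 1.60 at 6 h and 1.73 at 24 h (adjusted p = 0.0209 and 0.00371), and in WT liver by 2.24 at 24 h and 1.23 at 48 h (adjusted p = 0.000116 and 0.0125). Nr1i3, the xenobiotic receptor CAR, was higher by 2 of its 3 probe sets in Aag null liver at 24 h (0.81 and 0.95) and in WT liver at 12 h, 24 h and 48 h (0.81 to 1.41). In WT liver Nampt, the salvage enzyme of NAD synthesis, was higher at the same 3 times by 1.80, 1.98 and 1.51, the cell cycle kinase gene Wee1 at 12 h and 24 h by 0.64 and 0.71, and the glucose transporter gene Slc2a2 at 48 h by 1.31. Elovl3, a fatty acid elongase, was lower in WT liver at all 4 times by -1.20 to -1.31, and lower in untreated Aag null than in untreated WT liver by -1.03 (adjusted p = 0.00817). Between times, over both genotypes together, Cyp2b10, a drug-metabolizing cytochrome P450, was lower at 12 h than at 24 h and 48 h by -1.06 (SE 0.20, adjusted p = 0.0113 in limma). At 6 h it was lower than at 24 h and 48 h by -1.13 (adjusted p = 0.00295), and Cyp7a1 by -0.83 (adjusted p = 0.038). The difference of Cyp7a1 lay in WT liver, with means of 3.51 at 6 h, 5.84 at 24 h and 4.83 at 48 h. In Aag null liver its mean at 6 h (5.36) lay between those at 24 h (5.49) and 48 h (4.92).

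Beside Per1, 4 other glucocorticoid-induced genes had 1 probe set each. Fkbp5, a chaperone of the steroid receptor, was higher at 12 h than at 24 h and 48 h together by 0.65 (SE 0.13, adjusted p = 0.0252 in limma). It was lower at 48 h than at 24 h by -1.03 (SE 0.15, adjusted p = 0.00293). Its means at 12 h, 24 h and 48 h were 6.73, 6.04 and 5.41 in Aag null liver and 6.42, 6.85 and 5.41 in WT liver. In WT liver it was thus lower at 12 h than at 24 h. After MMS it was higher in Aag null liver at 12 h by 1.34, and in WT liver at 6 h, 12 h and 24 h by 0.65, 1.09 and 1.51. Tat, the tyrosine aminotransferase, was higher in Aag null liver at 12 h and 24 h by 1.47 and 1.09, and the other 2 genes had no call after MMS. Of these further genes Cyp2b10 and Fkbp5 met the rule for naming, a call at 12 h against 24 h and 48 h, and the others were named after their values were seen.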

How the data were processed

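Liver RNA was hybridized to 28 arrays. The authors deposited 1 value for each probe set on each array, taken as log2 from its range (0.689 to 13.16). Probe summary and scaling are not stated in the labels. After 66 control probe sets were left out, 12422 were quantile normalized, because array medians spanned 0.22. No brightness filter was used, so every member was tested, and 11 of the 16 would have passed one (brighter than the array median on at least 2 arrays). Of the 12422 probe sets 10833 had 1 gene symbol, 396 several and 1193 none.

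limma 3.58.1 in R 4.3.3 fitted the 10 group means to the 28 arrays (18 residual degrees of freedom, mean-variance trend), with Benjamini-Hochberg adjustment within each comparison. The 17 comparisons took replicates as unpaired. An 18th, of the mean responses, was added after the data were seen. The fit was tested on simulated data. Figures used Python 3.11.15 and matplotlib 3.10.9.

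Members, gene lists and comparisons were chosen with earlier results of these data known. All members and probe sets were named, whatever their values. Further clock, output and glucocorticoid-induced genes were counted. The rule named those called at 12 h against 24 h and 48 h, and the others named were picked after their values were seen. The 5 highest and 5 lowest correlations with Dbp came from single-symbol probe sets that pass that filter, with treated group means spanning at least 1.

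Alternatives were the values as deposited, a brightness filter, the brightest probe set per gene, a block for replicate number, weights per array, a term for array set, the fit without 3 female-typical arrays, and each array left out. Added after the data were seen were fits within each array set, fits of treated arrays only, and a fit without the 2 alike 6 h arrays.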

Additional observations from a re-analysis of the deposited data

Results flagged for a closer look

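In the 4 Aag null arrays at 24 h, 1 array was flagged as apart from the other 3 in each of the 3 Noct probe sets, though not the same array. Noct by 99535_at was 7.55 in replicate 1 against 6.69 to 6.79 in the others. By 162384_f_at it was 2.52 in replicate 1 against 2.23 to 2.26. The gap of 101787_f_at was small, with 3.16 in replicate 2 against 3.26 to 3.28. Replicates 1 and 2 are the 2 arrays of that group with female-typical transcripts, and the part of this in Noct was not tested. Among many groups, some arrays stand apart in this way by chance alone.

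The mean response to MMS differed between the genotypes by limma's test of the difference itself for 6 probe sets. Aag null minus WT was -0.95 for Nr1d1 (adjusted p = 0.0152), -1.60 for Nr1d2 (adjusted p = 0.0166), -0.79 for Tef (adjusted p = 0.0325), 1.04 for Cry1 by 161225_r_at (adjusted p = 0.0159), 1.03 for Cry1 by 94420_f_at (adjusted p = 0.00344) and 0.81 for Nfil3 by 102955_at (adjusted p = 0.0221). Between treated livers the same 6 probe sets differed by -0.17 to 0.01, and between untreated livers by -1.03 to 1.54. Over the alternatives the highest adjusted p in limma was 0.28 for Nr1d1, 0.155 for Tef and 0.265 for Nfil3. For Cry1 it was 0.109 (161225_r_at) and 0.0691 (94420_f_at), and only Nr1d2 stayed under 0.05 (at most 0.0476). In the WT response MMS and the array set cannot be told apart. This test was added after the data were seen.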

How the results depend on the processing

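Of 49 called member differences, 0 changed direction under any alternative run. Calls remained for 47 with values as deposited, 49 with the replicate block, 43 without the female-typical arrays, 32 of 49 with array set as a term and 27 with array weights. With 1 array left out, 206 of 278 remained. The counts of called member probe sets moved as follows, and the cause was not tested, except that filters test fewer probe sets. With array weights the count was 1 at 12 h against 24 h and 48 h, 1 for that in Aag null liver, 3 and 1 for Aag at 12 h and 48 h, 0 and 6 for WT at 6 h and 48 h, and 3 between untreated genotypes. With array set as a term it was 1 at 12 h and 3 at 6 h against 24 h and 48 h, 1, 2 and 1 for Aag at 6 h, 12 h and 48 h, and 7 for WT at 48 h. With only treated arrays it was 1 at 12 h against 24 h and 48 h, 1 at 6 h against 12 h, 4 at 6 h against 24 h and 48 h, and 1 at 48 h against 24 h. With the brightness filter it was 1 at 6 h against 24 h and 48 h, 4 and 6 for WT at 6 h and 12 h, and 4 between untreated genotypes. With the brightest probe set of each gene these were 2, 3, 5 and 4, with 6 and 7 for WT at 24 h and 48 h. Without the 2 alike 6 h arrays it was 4 at 6 h against 24 h and 48 h and 4 for WT at 6 h. Without the female-typical arrays it was 0 for Aag at 24 h. Within the lower array set it was 2, 3, 5 and 2 for Aag at the 4 times, and within the high set 2 between untreated genotypes. With each array left out in turn the count ranged from 4 to 7 for WT at 6 h, 7 to 10 at 12 h, 3 to 9 at 24 h and 6 to 11 at 48 h, 0 to 3 for Aag at 24 h, 6 to 8 between untreated genotypes, and 0 to 1 at 6 h against 12 h and against 24 h and 48 h, and 0 to 0 elsewhere.

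Correlations between arrays did not settle whether replicate numbers pair the samples, and replicates were taken as unpaired. Of 106 same-numbered pairs of arrays 34 had deviations correlating above 0.1, with a median of -0.03 for the same number and 0.02 for different numbers, and 13 of 28 arrays correlated best with their own number. How many would do so by chance was not tested, and the alike pair at 6 h shares its number. With the replicate block the counts were 7, 11, 10 and 12 for WT, 0, 0, 3 and 0 for Aag at the 4 times, 7 between untreated genotypes and 0 in the comparisons of treated livers. Arntl, 2 probe sets of Cry1 and 1 of Noct were below the array median on all 28 arrays, which limits their values. Nfil3 102955_at was above it on 1 array and Noct 101787_f_at on 3.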
